A study of Mus musculus with 6 samples.

Results

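The genes of sterol synthesis, regulation and transport were followed in HT22 cells, an immortalised mouse hippocampal line, after exposure to AA147 or to DMSO vehicle. The set has 35 genes, chosen by symbol from general knowledge of the pathway, but with earlier results of these data known. All 35 were among the 16472 genes of the authors' deposited table. AA147 is a compound known to switch on stress responses run by ATF6 and NRF2. The AA147 group had 3 libraries from cultures exposed for 16 h to a dose that the labels give as 10 mM, and the vehicle group had 3 libraries from cultures given DMSO for the same 16 h. All cultures were of 1 cell line grown in the same serum-containing medium, and the labels do not say whether the 3 of a group came from separate experiments, so a p-value measures only the spread between these libraries.

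The authors' deposited table is a gene-level comparison with 1 line per gene, so no value of a single library was analysed here and whether the libraries of the groups overlap cannot be stated. The mean normalized counts of the authors' deposited table summed to 30768012 over all genes, which is a normalized total and not the depth of a library. Those of the 35 genes ran from 150 to 22619. The fold change has no named numerator in the authors' deposited table and is read as AA147 over vehicle. Nqo1, a classic NRF2 target, had a log2 fold change of 0.93 (SE 0.067, adjusted p 1.73e-40) per the authors' deposited table, which is the ground for that reading, and every "lower" and "higher" below would swap without it. A gene counts as called when the authors' deposited table, made with DESeq2, lists an adjusted p under 0.05. Of 10 neuronal marker genes, 3 were listed in the authors' deposited table and the other 7 were not analysed here; Tubb3, a neuronal tubulin, had a mean of 1199 and was called positive at 0.43 (SE 0.092, adjusted p 5.67e-05), Dlg4, a postsynaptic scaffold gene, had a mean of 1653 and was not called at -0.15, and Slc17a7, the vesicular glutamate transporter of hippocampal neurons, had a mean of 3.93 and no adjusted p. Of 6 fibroblast markers 5 were listed, and their summed means, computed from mean and fold change, were 602072 with vehicle and 271524 with AA147, with all 5 called negative in the authors' deposited table. Their part in the sterol results was not tested, and in bulk RNA fewer cells of a kind and less RNA per cell cannot be told apart.

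Cells build cholesterol from acetyl-CoA through mevalonate, isoprenoid diphosphates, squalene and lanosterol. Transcription of the enzymes is driven mainly by SREBP2, encoded by Srebf2, which SCAP escorts from the endoplasmic reticulum when membrane sterol is low and which INSIG proteins hold back when it is high. Sterol also enters through lipoprotein receptors, leaves lysosomes through NPC2 and NPC1, is esterified by SOAT1 and is exported by ABCA1, whose gene is controlled by liver X receptors.

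The upstream sequences are shown because SREBPs bind a short sterol regulatory element and act together with NF-Y, which binds a CCAAT box. RefSeq start sites on GRCm38.p6 were known for 30 of the 35 genes, and Fdps, Fdft1, Sqle, Npc1 and Stard4 had no entry. The 250 bases before each start were searched on both strands for CCAAT, for GGGCGG, a GC box, and for TCACNCCAC, a form of the sterol regulatory element, the last also with at most 1 mismatch, which was added after the first search was seen. No letters were shared between matches of CCAAT and the element among the windows printed below. A CCAAT box was found for 16 of the 17 matched synthesis genes and for 9 of the 13 other members, beside 41.9% of the 7984 genes that had a known start and a mean of 100 or more. All windows of that length, 32851 in number, held one in 33.8% of cases. Acat2 was the matched synthesis gene without a box in its window. At least 2 boxes were present for 11 of the 17 synthesis genes, among them Ggps1 and Lbr, and for 4 of the 13 others. Mvk and Osbp each had 5. The share of all genes with at least 2 boxes was not computed. The strict element TCACNCCAC was present for 1 member, Hmgcs1, and in 1.15% of genes whose mean was 100 or more. With at most 1 mismatch it was present for 7 of the 17 synthesis genes and 5 of the 13 others, and in 25.1% of those genes. The GC box GGGCGG was present for 15 of the 17 synthesis genes, for 11 of the 13 others and for 66.6% of the genes whose mean was 100 or more. These matches are letters in a window and were not tested as binding sites.

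The windows printed are those of Hmgcs1, which holds the strict element, of Nsdhl, the member with the smallest adjusted p, of Srebf2, which encodes the factor itself, and of Tm7sf2 and Lbr, which serve the same step. They run from 5′ to 3′ on the gene's strand, without bases that the annotated transcript covers. Capitals mark the element with at most 1 mismatch and the CCAAT box, which reads ATTGG on the other strand. Distances are counted from the RefSeq start. The strict element of Hmgcs1 starts 137 bases before it, and matches with 1 mismatch start 220 bases before it for Hmgcs1, 205 for Nsdhl and 162 for Srebf2. The printed windows of Srebf2 and Tm7sf2 stop short of the RefSeq start, where the annotated transcript begins, so distances to the end of these windows are shorter.
Hmgcs1 (chr13:119690101-119690350, plus strand): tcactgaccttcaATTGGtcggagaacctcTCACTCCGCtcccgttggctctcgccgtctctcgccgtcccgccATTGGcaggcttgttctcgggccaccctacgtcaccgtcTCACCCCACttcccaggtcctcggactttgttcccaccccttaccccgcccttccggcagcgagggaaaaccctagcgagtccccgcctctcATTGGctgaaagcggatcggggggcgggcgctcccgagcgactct
Nsdhl (chrX:72918271-72918520, plus strand): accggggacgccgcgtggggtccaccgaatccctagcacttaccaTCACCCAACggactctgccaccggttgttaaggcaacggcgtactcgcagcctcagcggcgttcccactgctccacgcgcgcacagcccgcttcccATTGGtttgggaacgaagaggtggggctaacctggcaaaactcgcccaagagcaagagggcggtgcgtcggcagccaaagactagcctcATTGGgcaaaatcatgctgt
Srebf2 (chr15:82147019-82147180, plus strand): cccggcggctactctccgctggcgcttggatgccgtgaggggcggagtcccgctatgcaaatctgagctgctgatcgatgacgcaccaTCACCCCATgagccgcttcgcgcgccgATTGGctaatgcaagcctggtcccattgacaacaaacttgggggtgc
Tm7sf2 (chr19:6067863-6068100, minus strand): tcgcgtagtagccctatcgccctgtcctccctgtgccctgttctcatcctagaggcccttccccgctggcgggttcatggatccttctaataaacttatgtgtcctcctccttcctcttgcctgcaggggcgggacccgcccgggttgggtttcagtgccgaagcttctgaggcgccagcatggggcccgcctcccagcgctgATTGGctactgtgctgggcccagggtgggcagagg
Lbr (chr1:181842402-181842651, minus strand): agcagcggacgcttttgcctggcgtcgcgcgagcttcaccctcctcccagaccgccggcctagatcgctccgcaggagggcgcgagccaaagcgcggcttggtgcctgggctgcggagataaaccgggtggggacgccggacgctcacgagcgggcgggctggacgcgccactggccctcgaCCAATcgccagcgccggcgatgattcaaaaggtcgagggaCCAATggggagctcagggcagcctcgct

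Transcripts of nearly all synthesis enzymes in the set were lower with AA147. In the authors' deposited table, 18 of the 20 enzymes were called negative, 1 was called positive and 1 was not called. Over the 13597 genes with an adjusted p, 20.2% were called in either direction, 11.1% negative and 9.05% positive. Among the 10633 of them with a mean of 100 or more, as all members have, 13.1% were called negative and 10.7% positive. The median log2 fold change of the 20 enzymes was -0.56, beside 0.01 for all tested genes. The called decreases were moderate, from -0.25 to -0.88 in the authors' deposited table. A log2 fold change of -0.5 or below was called for 12 enzymes, and for 3.87% of all tested genes. Summed over the 20 enzymes, the group means computed from mean and fold change were 94896 with vehicle and 62652 with AA147, which is 34.0% lower. These group means take the fold change at face value, and no spread between libraries can be given for them.

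**Figure D1:**
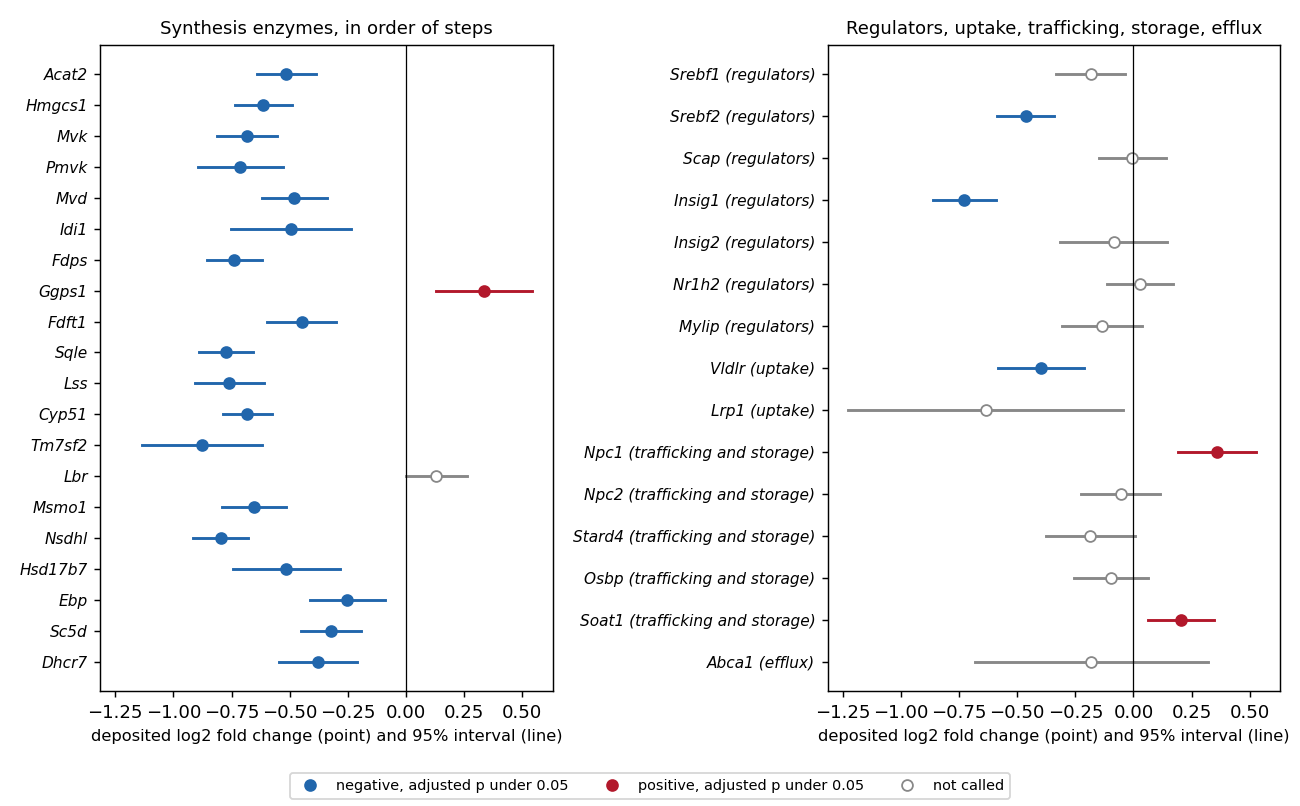
The x axis of both panels is the deposited log2 fold change, with points for the estimates and lines for 95% intervals computed from the authors' standard errors; the left panel orders the 20 synthesis enzymes by step and the right panel holds the 15 other genes by role. Of the enzymes 18 are called on the left of zero and Ggps1 on the right, and of the 15 other genes 3 are called on the left and 2 on the right. Srebf1 and Lrp1 are not called, although their intervals lie left of zero.

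The member enzymes between acetyl-CoA and farnesyl diphosphate were all called negative, 7 of 7, with a median of -0.61. The set does not cover every step of this stretch. Acat2, which joins acetyl-CoA units, had a log2 fold change of -0.51 (SE 0.064) per the authors' deposited table, or 30.0% lower (95% interval 23.6 to 35.9%). Hmgcs1, the HMG-CoA synthase, had the highest mean count of the 7, not corrected for length, with implied means of 10491 normalized counts with vehicle and 6860 with AA147. Its log2 fold change in the authors' deposited table was -0.61 (SE 0.063, adjusted p 1.18e-20). The kinases that phosphorylate mevalonate moved by like amounts. Mvk had a log2 fold change of -0.68 and Pmvk one of -0.71 in the authors' deposited table, with overlapping 95% intervals of -0.81 to -0.55 and -0.89 to -0.53. Mvd, the decarboxylase that yields isopentenyl diphosphate, was at -0.48 (SE 0.071) per the authors' deposited table. Fdps, the farnesyl diphosphate synthase, had the largest decrease of the 7, at -0.74 (SE 0.061, adjusted p 7.27e-32) per the authors' deposited table, or 40.1% lower (95% interval 34.9 to 44.8%).

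Idi1, the isomerase between Mvd and Fdps, was called at -0.49 (SE 0.13, adjusted p 0.00186) per the authors' deposited table, with a mean of only 352. Its value is uncertain, because 2 other loci of the GRCm39 genome matched its transcript at 95% identity or more, the closest at 99.9%, and the counting of reads that fit several loci is not given in the sources used here. The same limit holds for Fdps, with 4 such loci, and for Acat2, Fdft1 and Insig1, with 1 each. The other 30 members had 0 such loci covering at least 25% of the transcript.

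Farnesyl diphosphate is the branch point of the pathway. Ggps1, which diverts it to geranylgeranyl diphosphate for protein prenylation, was the enzyme called positive. Its log2 fold change in the authors' deposited table was 0.34 (SE 0.11, adjusted p 0.0110), and its implied means were 531 normalized counts with vehicle and 671 with AA147. Of all tested genes, 90.7% had a lower fold change than Ggps1. The call was lost at an adjusted p under 0.01 and under 4 other settings.

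Fdft1, the squalene synthase that commits farnesyl diphosphate to sterols, went the other way at -0.45 (SE 0.076, adjusted p 1.25e-07) per the authors' deposited table. The 95% intervals of the pair were 0.13 to 0.54 for Ggps1 and -0.60 to -0.30 for Fdft1 and did not overlap, although the difference itself was not tested. The libraries were not stranded, and 34.1% of the Fdft1 transcript lies over exons of Ctsb on the other strand, which had a mean of 4668 and a log2 fold change of 0.20 (adjusted p 0.0143) per the authors' deposited table. What reads of Ctsb contribute to the value of Fdft1 was not tested.

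The next 3 enzymes, which carry squalene to the demethylated sterol, were called negative as well. Sqle, the squalene epoxidase and a rate-limiting enzyme, had the highest level of the 20 enzymes per kilobase of transcript, a mean of 4388 normalized counts, with 3275 for Fdps as the next. Its implied means were 15538 normalized counts with vehicle and 9096 with AA147. It was 41.5% lower (95% interval 36.6 to 46.0%), at -0.77 (SE 0.059, adjusted p 5.72e-37) per the authors' deposited table. Lss, the lanosterol synthase, was almost as low at -0.76 (SE 0.076, adjusted p 1.11e-21) per the authors' deposited table. Cyp51, the lanosterol demethylase, had the smallest SE of the 35 genes at 0.054 and a log2 fold change of -0.68 (adjusted p 7.40e-34) per the authors' deposited table. Its implied means were 14216 and 8861 normalized counts. Sqle shares 16.7% and Cyp51 24.2% of its transcript with an exon of a neighbour on the other strand, Washc5 and Akap9. These neighbours had means of 12418 and 1858 and log2 fold changes of 0.14 and 0.10 in the authors' deposited table, and were not called. What their reads contribute to the fold changes and levels of Sqle and Cyp51 was not tested.

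The step after Cyp51 can be catalysed by either of a pair of related sterol reductases, and these had different values. Tm7sf2, an enzyme of the endoplasmic reticulum, had the lowest fold change of all 35 genes, at -0.88 (SE 0.13, adjusted p 1.05e-09) per the authors' deposited table, or 45.6% lower (95% interval 34.9 to 54.5%). Lbr, which is also a receptor of the nuclear lamina, was at 0.13 (SE 0.067, adjusted p 0.165) per the authors' deposited table and was not called. The log2 fold changes lay 1.01 apart with intervals that did not overlap, and this difference was not tested. Per kilobase of transcript, the mean level of Lbr was 1.82 times that of Tm7sf2. The CCAAT box printed above is present in both windows, once in Tm7sf2 and 2 times in Lbr.

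The enzymes that then remove the methyl groups were all called negative. Nsdhl, a dehydrogenase of this complex, was at -0.80 (SE 0.060, adjusted p 4.92e-38) per the authors' deposited table, the smallest adjusted p of the 35 genes. Msmo1, the methylsterol oxidase, was at -0.65 (SE 0.070) per the authors' deposited table. Hsd17b7, the keto reductase, was at -0.51 (SE 0.12) on a mean of 630 in the authors' deposited table.

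The last 3 enzymes in the order had the smallest estimates among the called decreases. Ebp, the sterol isomerase, had a log2 fold change of -0.25 (SE 0.083, adjusted p 0.0151) per the authors' deposited table, or 16.1% lower (95% interval 6.10 to 24.96%). Sc5d, the desaturase, was at -0.32 (SE 0.066) and Dhcr7, the final reductase of one of the routes, at -0.38 (SE 0.086) per the authors' deposited table. The median of these 3 was -0.32, beside -0.65 for Msmo1, Nsdhl and Hsd17b7. The 95% interval of Nsdhl, from -0.91 to -0.68, overlapped none of the 3, while that of Hsd17b7, from -0.74 to -0.28, overlapped each. The intervals of the earlier enzymes Mvd, Idi1 and Fdft1 overlapped each as well. Over the 20 enzymes, the Spearman correlation of step order with log2 fold change was 0.20.

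**Figure D2:**
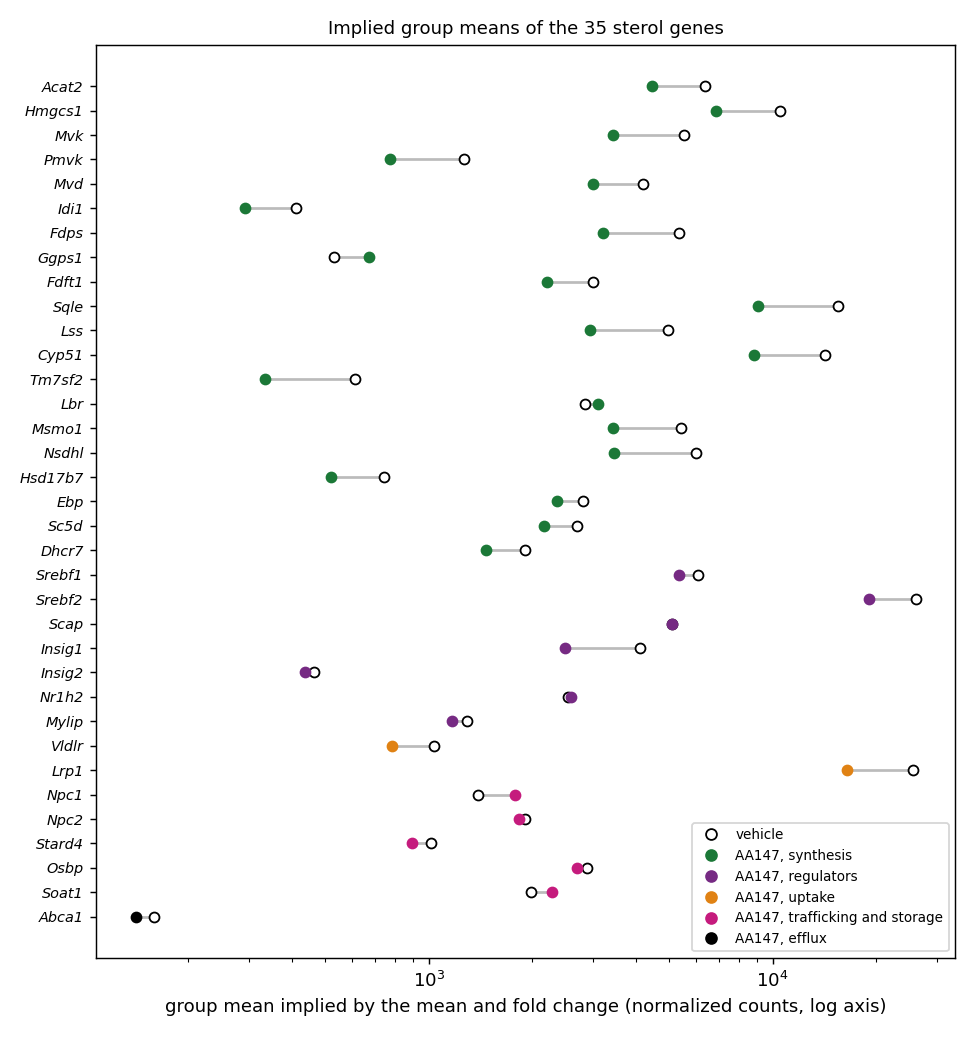
For each of the 35 genes, open points show the vehicle and filled points the AA147 group mean in normalized counts on a log axis, computed from the deposited mean and fold change, and filled colours give the role. Sqle moves from 15538 to 9096 and Cyp51 from 14216 to 8861, while the points of Scap lie on top of each other.

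Among the 7 regulators, 2 were called, both negative, and the median was -0.14. This share of 28.6% rests on 2 genes. Over all tested genes, 20.2% were called in either direction and 11.1% were called negative. Among genes with a mean of 100 or more, 13.1% were called negative. Srebf2, the master gene of the pathway, had the highest mean of the 35 genes, 22619 normalized counts, or 4455 per kilobase of transcript. Its log2 fold change in the authors' deposited table was -0.46 (SE 0.062, adjusted p 5.23e-12), or 27.5% lower (95% interval 21.1 to 33.3%). Srebf1, whose products act mainly on fatty acid genes, was at -0.18 (SE 0.076, adjusted p 0.0670) per the authors' deposited table and was not called. Of the alternatives run, it passed the threshold only when fold changes were centred on genes whose mean was 100 or more (adjusted p 0.0460). Per kilobase of transcript, the mean level of Srebf2 was 3.38 times that of Srebf1. Scap, the escort protein gene, had a log2 fold change of -0.0044 (95% interval -0.15 to 0.14) per the authors' deposited table.

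The INSIG genes, which encode the retention proteins, also had different values. Insig1, itself a known SREBP target, was called at -0.73 (SE 0.069, adjusted p 1.16e-23) per the authors' deposited table, with implied means of 4116 and 2485 normalized counts. Insig2 was at -0.09 (SE 0.12, adjusted p 0.685) per the authors' deposited table, with a 95% interval from -0.32 to 0.14. The intervals of the pair did not overlap, and their difference of -0.64 was not tested. Per kilobase of transcript, the mean level of Insig1 was 7.46 times that of Insig2. Nr1h2, a liver X receptor gene, was at 0.03 and Mylip, a liver X receptor target that marks lipoprotein receptors for degradation, at -0.14 in the authors' deposited table, and neither was called.

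Uptake was represented by 2 receptor genes with lower values. Vldlr, the very-low-density lipoprotein receptor, was called at -0.40 (SE 0.094, adjusted p 3.11e-04) per the authors' deposited table, with implied means of 1034 and 784 normalized counts. Lrp1, a large endocytic receptor, had a lower estimate of -0.63 in the authors' deposited table, but its SE of 0.30 was 5.11 times the median SE of similarly abundant genes, and it was not called (adjusted p 0.126). Its 95% interval, from -1.23 to -0.04, spans changes from large to almost none. Vldlr and Lrp1 thus cannot be ranked by these values.

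The 5 trafficking and storage genes had a median of -0.06, with 2 called positive by DESeq2 and none negative, and the same 2 were the only ones with an unadjusted p under 0.05. Npc1, the membrane protein through which sterol leaves the lysosome, had a log2 fold change of 0.36 (SE 0.086, adjusted p 4.11e-04) per the authors' deposited table, and its implied means were 1391 with vehicle and 1783 with AA147. On the other strand, 16.4% of its transcript lies over exons of Rmc1, which had a mean of 957 and was at -0.03 in the authors' deposited table. What reads of Rmc1 contribute to the value of Npc1 was not tested. Npc2, the soluble partner in the lysosome, was at -0.06 (SE 0.086, adjusted p 0.727) per the authors' deposited table. Soat1, which esterifies cholesterol for storage, was called at 0.20 (SE 0.072, adjusted p 0.0287) per the authors' deposited table. The carriers were not called. Stard4 was at -0.19 (adjusted p 0.177) and Osbp, an exchanger at the Golgi, at -0.10 (adjusted p 0.456) per the authors' deposited table.

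The exporter Abca1 had the lowest mean of the 35 genes, 150, and a log2 fold change of -0.18 (SE 0.26, adjusted p 0.696) per the authors' deposited table. Its 95% interval, from -0.68 to 0.32, covers the median of the synthesis enzymes as well as no change, so these data do not tell the 2 apart. Its SE was 1.32 times the median SE of similarly abundant genes. Outside synthesis, 5 of 15 genes were called, 3 negative and 2 positive, with a median of -0.14, beside 19 of 20 and -0.56 for the enzymes. The share of 33.3% compares with 20.2% of all tested genes, and genes with a mean of 100 or more were called negative in 13.1% and positive in 10.7% of cases. The difference between the groups of genes was not tested, because genes of 1 set of libraries are not independent.

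**Figure D3:**
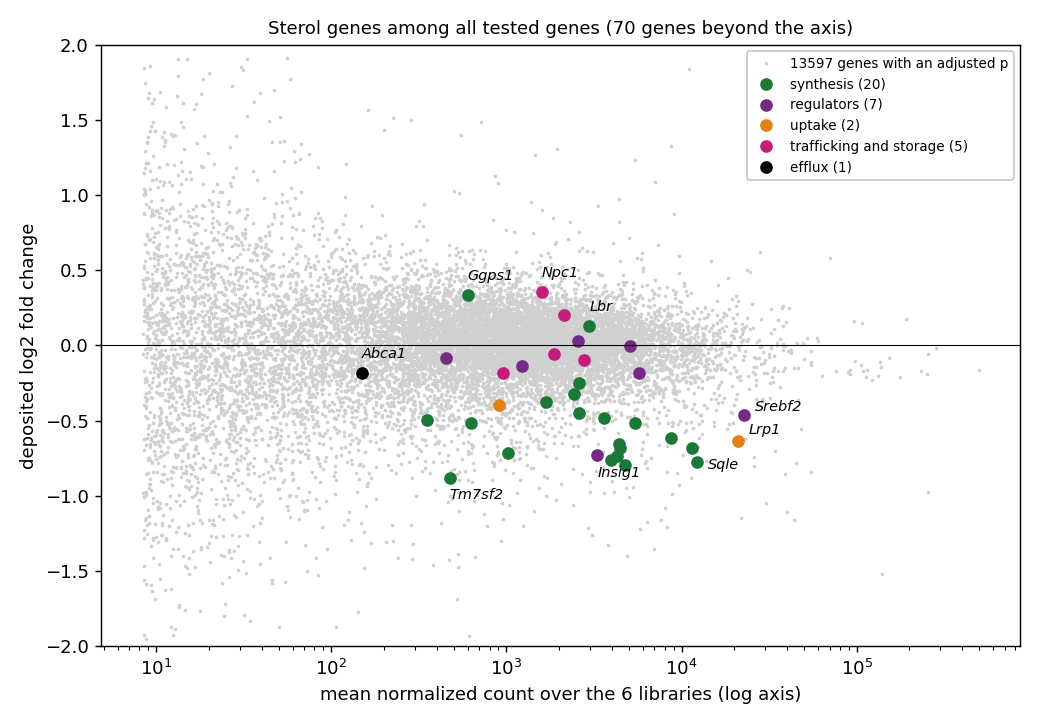
The x axis is the mean normalized count over the 6 libraries (log axis) and the y axis the deposited log2 fold change, with grey points for the 13597 genes with an adjusted p (70 of them beyond the axis) and coloured points for the 35 sterol genes by role. The synthesis points cover means from 352 to 12317 and lie below zero, toward the lower edge of the grey points, except Ggps1 and Lbr.

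A wider list of 69 other sterol-pathway genes, 63 of them in the authors' deposited table, was described in the same way. Of the 61 with an adjusted p, 10 were called negative and 5 positive, with a median of -0.03; this share of 24.6% is near the 20.2% of all tested genes. The 7 genes of synthesis and its accessory proteins were all negative and 5 were called, with a median of -0.32. Cyb5r3, a reductase that passes electrons to the desaturase and oxidase steps, was at -0.53 (SE 0.060, adjusted p 8.07e-17), Tmem97, a sterol-responsive partner of NPC1, at -0.45 and Erg28, a scaffold of the demethylation complex, at -0.39 in the authors' deposited table. Of 13 genes of the isoprenoid branch 7.69% were called, below the share of all tested genes. The called gene was Zmpste24, a protease of prenylated proteins, at 0.21 (adjusted p 0.00622) per the authors' deposited table. The genes that process SREBPs or tune sterol sensing gave 1 call in 10, also below that share, Pgrmc1, a sterol-binding membrane protein, at 0.25 (adjusted p 0.00269) per the authors' deposited table.

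The transport, efflux and oxysterol genes of the wider list gave calls of both signs, to be read beside the 20.2% of all tested genes that were called. For uptake and the lysosome 3 of 7 were called, among them Lrpap1, a chaperone of lipoprotein receptors, at -0.21 and Scarb2, a lysosomal membrane protein, at 0.27 in the authors' deposited table. Of 14 tested trafficking genes 2 were called, Osbpl9, an oxysterol-binding protein homologue, at 0.20 and Vapb, which tethers such proteins to the endoplasmic reticulum, at -0.22 in the authors' deposited table. The efflux and liver X receptor class gave 1 call in 7, the transporter Abca5 at -0.32 (adjusted p 0.0106) per the authors' deposited table. Of 3 oxysterol and bile acid genes with an adjusted p, Hsd3b7, an enzyme of bile acid synthesis, was called at 0.60 (SE 0.11, adjusted p 6.17e-07) and Cyp39a1, an oxysterol hydroxylase, at -0.32 (adjusted p 0.0142) per the authors' deposited table.

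**Figure D4:**
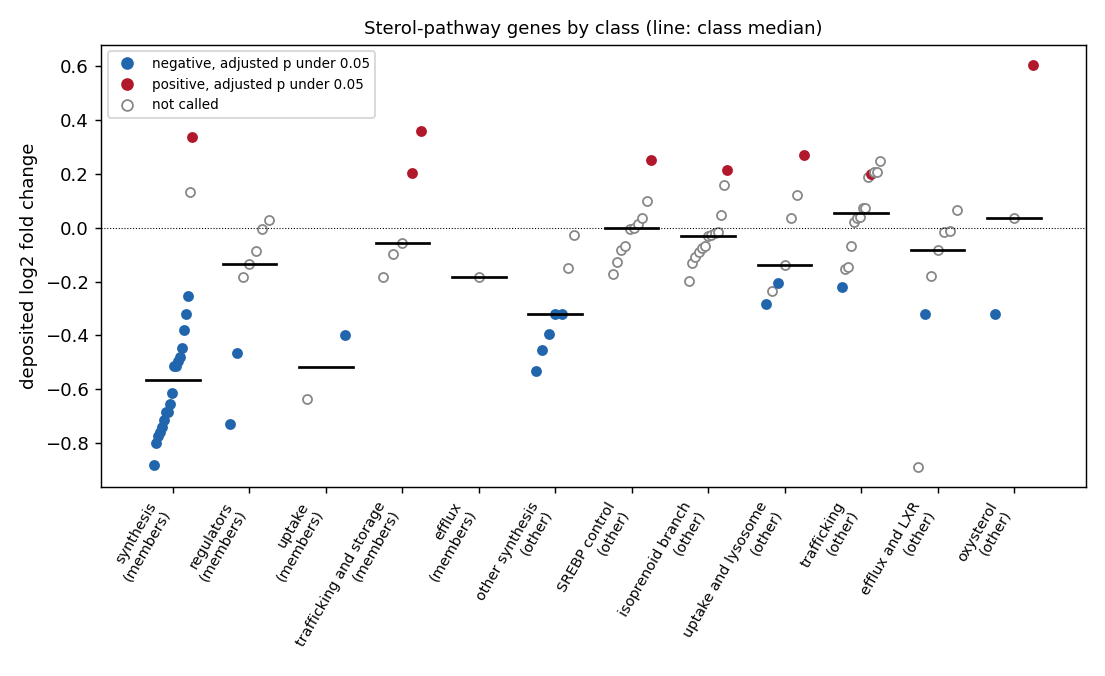
Each point is a gene with an adjusted p, placed by class on the x axis and by deposited log2 fold change on the y axis; blue and red points are called negative and positive, open points are not called, and black lines are class medians. The synthesis classes have medians of -0.56 and -0.32, and the isoprenoid and SREBP control classes lie near zero.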

How the data were processed

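Non-stranded mRNA libraries were made from RNA of 3 AA147 and 3 vehicle cultures, per the labels' protocols. The submitters' processing notes name DESeq2 and the genome build mm9; the aligner, read counter, annotation and filters are not given in the sources used here. Per the file headers, the authors deposited a mean normalized count over all libraries (a signal scaled by size factors, not whole reads), a log2 fold change with its SE, a test score and p-values, unadjusted and adjusted. The latter equalled a Benjamini-Hochberg adjustment over 13597 genes; another 2875 had none.

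From these values, 95% intervals (normal approximation), percent changes, implied group means and counts of calls were computed with Python 3.11.15, pandas 2.3.3 and SciPy 1.17.1. The code that makes the calls was tested on fold changes simulated with normal errors from the deposited SEs. The other computations were not tested in this way. Implied group means assume 3 against 3 libraries and an unshrunken fold change. Transcript lengths, exon overlaps and copies (minimap2, at least 95% identity over 25% of the transcript) came from GENCODE M39 on GRCm39, a later build than the authors', and served for names and shares only. Promoter windows came from RefSeq on GRCm38.p6. All 35 members are named, and of the other genes those called, except a few whose single values are not reported here. The members and lists were chosen with earlier results of these data known. Erg28, Washc5 and Rmc1 were matched by older symbols.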

Additional observations from a re-analysis of the deposited data

How the results depend on the processing

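No paired analysis was possible because the deposited table holds 1 line per gene and nothing for each library; leaving out replicates, other normalizations and refits from counts were therefore not run, and depth per library is unknown. Over 8 alternatives, 239 of 280 values of single members stayed on their side of the threshold, 40 lost a call and 1 gained one (Srebf1, with centring). Part of this was fixed in advance. Genes not called could not gain a call at an adjusted p under 0.01, with Bonferroni or with the fold limit. The fold change itself was altered only by centring, a shift of 0.013, so a change of sign was possible there alone, and 0 changed sign. The 19 called enzymes became 17 at an adjusted p under 0.01, 14 with Bonferroni, 13 with a null interval of 0.2 or with the statistic divided by its robust SD of 1.80, and 12 with a fold limit of 0.5, all negative; Ggps1 was lost in each of these. Over all tested genes the called share went from 20.2% to 13.4%, 5.69%, 5.11%, 3.60% and 5.85% in these settings, in the order named. Regulators went from 2 to 1 with the fold limit. For uptake, trafficking, storage and efflux, the 3 calls became 0 with Bonferroni, the fold limit, the null interval or the robust SD, where 4 of the 8 had an unadjusted p under 0.05. The 15 other pathway genes became 5 with Bonferroni, 2 with the fold limit, 3 with the null interval and 2 with the robust SD. All of these settings are stricter by construction. The median of the enzymes was -0.58 after centring, -0.51 as a mean and -0.54 as a weighted mean.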
